A study of Mus musculus with 6 samples.

Results

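Integrin subunits and focal adhesion proteins were followed at the mRNA level in C2C12 cells, a line of mouse myoblasts, the precursors that fuse into muscle fibers. The members were the genes whose symbol in the deposited table has the form of an integrin α or β subunit, leaving out the Itgb1bp and Itgbl genes, together with 31 named components of focal adhesions. This rule found 59 members among the 22375 genes of the table, of which 27 are integrin subunits and 1, Itgb3bp, matches the spelling but encodes a nuclear protein and not a subunit. The CON group was 3 libraries of unstretched cells and the 4H group was 3 libraries of cells under cyclic stretch at 15% elongation for 4 h. Per the methods of the study, cells for stretching were seeded on elastic plates coated with poly-lysine, and whether the CON cells lay on the same plates is not stated. Both groups were the same single line, with no genetic change or drug named in the labels, and the 4H libraries titled 4H1, 4H3 and 4H4 are called 4H replicates 1, 2 and 3 here, after the replicate numbers of the labels. Nothing in the labels says that the replicates came from separate cultures, so the p values measure only the spread between these libraries, which may be technical. The comparison asked which adhesion genes differ after stretch, the setting in which the study placed integrin β1.

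An integrin is a dimer of an α and a β subunit that spans the membrane, binds matrix proteins outside and is linked to actin inside. Talin and kindlin bind the tail of the β subunit and switch the dimer to its active form, vinculin reinforces the link to actin under load, and the complex of ILK, PINCH and parvin connects the same site to the cytoskeleton. Focal adhesion kinase, Src and their adaptors signal from it, while LIM proteins such as zyxin gather where actin bundles are under tension. In muscle, the laminin receptor α7β1 holds the cell to its basement membrane.

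Levels are given in FPKM, fragments scaled to transcript length and to the mapped fragments of the library, which can be compared between genes because it is per length. FPKM sums per library were 395790 to 397260 in the CON group and 385150 to 387520 in the 4H group, and the depth behind them is unknown. Fold changes are differences of means of log2(FPKM + 0.5), which understates the change of low genes, with limma p values adjusted by the Benjamini-Hochberg method over the 11593 genes whose mean over the 6 libraries was at least 0.5 FPKM. A gene is said to rise or fall where its adjusted p was at most 0.05, and differential expression also required a log2 fold change of 1 or more in either direction, as in the methods of the study. The myoblast markers Des, Myod1, Myf5, Cdh15 and Myog summed to 100.1 to 100.3 FPKM in the CON group and 126.7 to 132.3 FPKM in the 4H group, with Myog at 0.281 FPKM or less throughout. No marker of endothelial, epithelial, Schwann or neural cells exceeded 0.358 FPKM in any library, with Epcam and Sox10 at 0 in all, and the 5 myotube markers summed to at most 1.505 FPKM in any library. The epithelial markers Cdh1 and Krt8 summed to 0.0401 to 0.117 FPKM in CON and 0.282 to 0.553 FPKM in 4H. Of the 4 leukocyte markers Ptprc was at 0 in all libraries, while Cd68, a lysosomal protein that is not restricted to leukocytes, carried the sum of 6.73 to 8.51 FPKM in CON and 15.0 to 17.6 FPKM in 4H. Myod1 rose and Myf5 fell in the 4H group (log2 fold changes 1.74 and -0.67), and whether the state of the myoblasts has a part in the changes below was not tested. In such bulk RNA, fewer cells carrying an mRNA and less of it in each cell cannot be told apart.

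Of the 59 members, 41 passed the filter on low values, and the counts over them are a description of the genes that could be tested. Of these 28 rose and 6 fell in the 4H group, 68.3% and 14.6%, where 22.6% of all genes tested rose and 24.1% fell. The median log2 fold change was 0.33 over these members and -0.01 over all genes tested. Either call was met by 34 members, 82.9% against 46.7% of all genes. The groups did not overlap in 36 of the 41 members, where this held for 56.7% of all genes tested. Differential expression was met by 4 members, Itgb3, Vcl, Itgb6 and Fblim1, all higher in the 4H group, against 3.88% of all genes. Itgb6 is counted among the members that rose, those without overlap and those differentially expressed, but it passed the filter only through its 4H values. With the filter at 1 FPKM, 40 members were tested, of which 27 rose and 3 were differentially expressed. The filter left out 17 integrin subunits and the kindlin gene Fermt1, which was listed at 0 in every library.

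**Figure D1:**
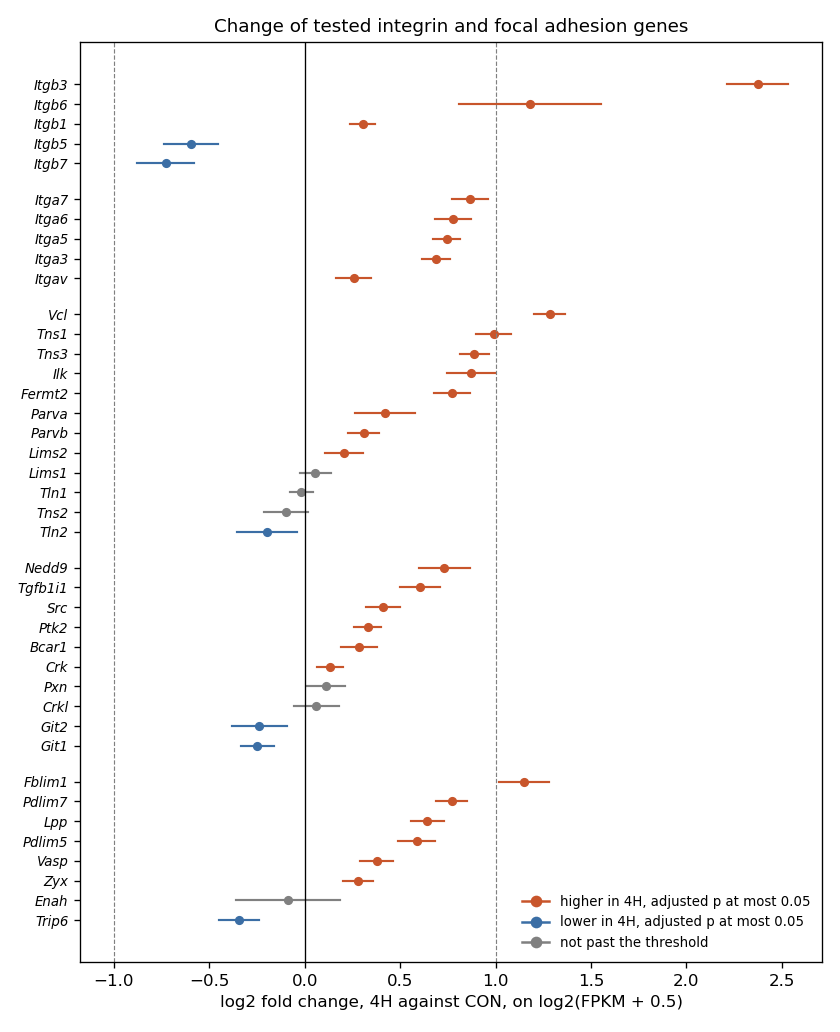
Log2 fold change of the 4H against the CON group on log2(FPKM + 0.5), with 95% confidence intervals from limma, for the 40 integrin and focal adhesion genes that could be tested. Blocks from top to bottom are β subunits, α subunits, activators and links to actin, kinases and adaptors, and LIM and actin assembly proteins, and the dashed lines mark a change of 1 in either direction. All 5 α subunits lie to the right of 0, whereas the β subunits lie on both sides.

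Promoter sequences of the members were searched for known motifs, and stretches picked for their matches are printed below. RefSeq promoter windows on GRCm38.p6, from 250 bases before to 50 after a start, were found for 45 members and numbered 56, because some genes have more than 1 start. Itgb3 had no entry. The CArG box, the element bound by serum response factor, was searched on both strands and lay in 4 of the 56 windows (7.14%) and in 1.63% of all 32851 windows. The AP-1 site TGANTCA lay in 8.93% of the members' windows and 7.81% of all, the TEAD site GGAATG in 10.7% and 14.7%, and the SP1 box GGGCGG in 57.1% and 35.7%. No match of one of these motifs overlapped a match of another in the members' windows. The 4 windows with a CArG box belong to Vcl, Fermt2, Itgb6 and Trip6, of which Trip6 fell and Vcl and Fermt2 rose. With Itgb6 counted as rising, the box lay in 3 of the 28 windows of members that rose and in 1 of the 7 windows of those that fell. The stretches below, all upstream of the start, are shown because Vcl and Itgb6 carry the same letters, Fermt2 is the kindlin gene of the list with a level above 0, and Fblim1 is a differentially expressed gene with a window. Tns1, Tns3 and Ilk rose more than Fermt2 and are not printed, and their windows held the SP1 box but none of the other motifs. Itgb6 is a low gene whose call depends on the processing, with its values given below. Capitals mark the CArG box in Vcl (chr14:20929148-20929225, plus strand), Itgb6 (chr2:60673694-60673788, minus strand, in front of a start inside the annotated gene) and Fermt2 (chr14:45530215-45530314, minus strand), and the AP-1 site in Fblim1 (chr4:141606081-141606177, minus strand), where the letters cattcc that follow are the TEAD site on the other strand. A match of letters is a description of the sequence and no measure of binding.
Vcl: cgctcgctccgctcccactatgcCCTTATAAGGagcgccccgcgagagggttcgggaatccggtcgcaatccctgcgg
Itgb6: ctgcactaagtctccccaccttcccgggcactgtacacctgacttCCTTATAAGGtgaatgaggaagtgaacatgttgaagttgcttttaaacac
Fermt2: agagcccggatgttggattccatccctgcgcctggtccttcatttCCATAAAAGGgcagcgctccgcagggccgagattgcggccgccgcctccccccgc
Fblim1: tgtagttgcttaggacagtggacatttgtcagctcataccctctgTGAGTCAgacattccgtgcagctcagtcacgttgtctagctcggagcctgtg

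The β subunits moved in opposite directions, with Itgb3 and Itgb1 higher and Itgb5 and Itgb7 lower in the 4H group. Itgb1 (ENSMUSG00000025809, chr8:128685654-128733200 on GRCm38), the common partner of most α subunits, was the most abundant subunit, at 205, 214 and 209 FPKM in the CON libraries and 261, 254 and 261 FPKM in the 4H libraries. Its groups did not overlap, and the log2 fold change was 0.30 (standard error, SE, 0.03, limma adjusted p = 6.24e-05). Itgb3 (ENSMUSG00000020689, chr11:104608000-104670476), which with αV forms a receptor for vitronectin and fibronectin, was at 2.29, 2.43 and 2.14 FPKM in CON and 14.0, 13.5 and 14.3 FPKM in 4H. The 4H mean was 6.10 times the CON mean, and the log2 fold change of 2.37 (SE 0.07, limma adjusted p = 1.37e-07) was the largest among the members tested on the log2(FPKM + 0.5) scale. Itgb6, an αV partner best known from epithelium, was at 0.0647, 0.192 and 0.112 FPKM in CON and 0.756, 1.09 and 0.899 FPKM in 4H. It stayed a low gene in every library, with a change of 1.18 on the log2 scale (SE 0.16), given as a description because of how it passed the filter. The ratio of its means, 7.46, was above that of Itgb3. The log2 change was 0.77 with a pseudocount of 1 FPKM and 0.94 with quantile normalization, both below the threshold for differential expression, and 2.215 with a pseudocount of 0.1 FPKM and 1.83 after rescaling to TPM.

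Itgb5, the β subunit of the vitronectin receptor αVβ5, was at 34.4, 38.8 and 34.2 FPKM in CON and fell to 24.8, 22.4 and 23.1 FPKM in 4H. The log2 fold change was -0.60 (SE 0.06, limma adjusted p = 0.000114), and every 4H library lay below every CON library. Itgb7, known as a partner of α4 and αE in lymphocytes, was at 49.98, 43.1 and 49.9 FPKM in CON, second only to Itgb1 among β subunits, and fell to 28.0, 27.4 and 30.1 FPKM in 4H. Its log2 fold change was -0.73 (SE 0.07, limma adjusted p = 5.13e-05), again without overlap. Itgb4, Itgb8, Itgb2 and Itgb2l did not reach the filter, with no library above 0.605 FPKM. Itgb4, the β subunit of hemidesmosomes, was at 0.270 to 0.317 FPKM in CON and 0.406 to 0.605 FPKM in 4H and passed the test when the filter was removed (adjusted p = 0.0218). Itgb8, another αV partner, was at 0.371 ± 0.0167 FPKM in CON and 0.385 ± 0.0329 FPKM in 4H (SD, n = 3 libraries each).

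**Figure D2:**
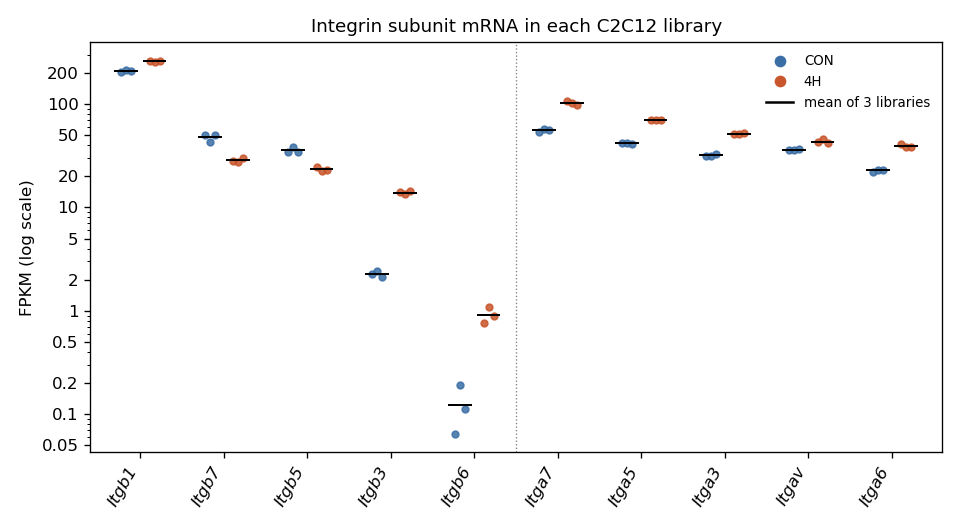
FPKM on a log scale of the 10 integrin subunits that could be tested, β subunits left and α subunits right of the dotted line, with 1 point per library and a bar at the mean of 3 libraries. The groups do not overlap in any of the 10, as in 56.7% of all genes tested, and Itgb3 moves from 2.29 to 13.9 FPKM on average while Itgb5 and Itgb7 move down.

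The subunits Itgb3, Itgb5, Itgb6 and Itgb8 are known to pair with αV, so their mRNA was set against each other within each library. Itgb3 made up 6.18%, 5.81% and 5.81% of their summed FPKM in the CON libraries and 35.1%, 36.2% and 36.9% in the 4H libraries. Itgb5 went from 92.7%, 92.8% and 92.9% to 62.2%, 59.9% and 59.7%. The means differed by 30.1 percentage points for Itgb3 and -32.2 for Itgb5, with no overlap between the groups (p = 0.1 for both by a two-sided exact permutation test, below which 3 libraries against 3 cannot go). Itgb6 went from 0.312% ± 0.142 to 2.38% ± 0.51 and Itgb8 from 0.964% ± 0.0422 to 0.996% ± 0.105 (SD, n = 3 libraries each), the latter with overlapping groups. The sum of all 4 was 38.6 ± 2.85 FPKM in CON and 38.7 ± 1.204 FPKM in 4H (SD, n = 3; two-sided exact permutation test, p = 1). The total differed by less than the spread between libraries, while the 2 groups did not overlap in the shares of Itgb3 and Itgb5. The share of Itgb6 is given as a description, because this gene passed the filter only through its 4H values. With Itgb1 in the denominator, which also pairs with αV, the share of Itgb3 went from 0.923% ± 0.0456 to 4.69% ± 0.0662 (SD, n = 3), a difference of 3.77 percentage points.

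**Figure D3:**
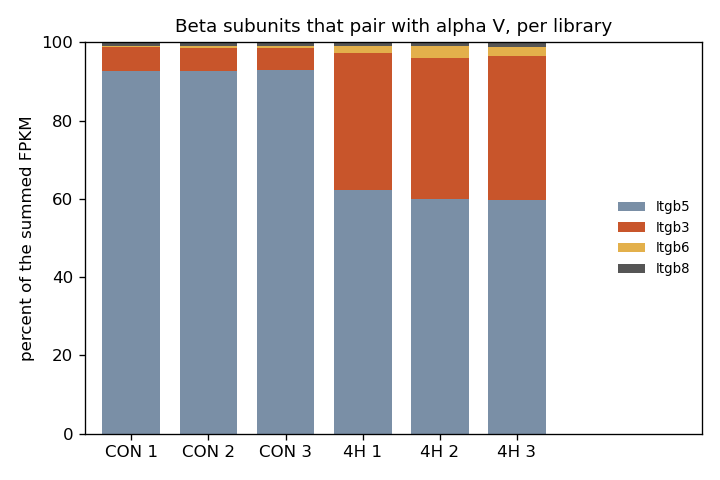
Percent of the summed FPKM of Itgb3, Itgb5, Itgb6 and Itgb8 that each contributes, stacked from 0 to 100 for each of the 6 libraries. Itgb3 takes 5.81% to 6.18% of each CON bar and 35.1% to 36.9% of each 4H bar, and Itgb5 the larger part of all bars.

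All 5 α subunits that could be tested rose, where 22.6% of all genes tested did. The 3 laminin-binding subunits rose by 0.69 to 0.87 on the log2 scale. Itga7 (ENSMUSG00000025348, chr10:128933818-128958282), the laminin receptor subunit of muscle, was at 53.7, 57.7 and 56.2 FPKM in CON and 106.2, 102.3 and 98.1 FPKM in 4H, a change of 0.87 on the log2 scale (SE 0.04, limma adjusted p = 1.62e-06). Itga6, also a laminin receptor subunit, was at 22.3, 23.0 and 23.2 FPKM in CON and 41.0, 38.6 and 38.8 FPKM in 4H (log2 change 0.78, SE 0.04, adjusted p = 2.70e-06). Itga3 was at 31.8, 31.6 and 32.6 FPKM in CON and 51.6, 51.7 and 52.2 FPKM in 4H (log2 change 0.69, SE 0.03, adjusted p = 1.51e-06). In all 3 genes the lowest 4H library was above the highest CON library, where the groups did not overlap in 56.7% of all genes tested. The summed level of the 3 genes was 1.75 times as high in 4H.

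The RGD-binding subunits recognise the short motif of fibronectin and vitronectin. Itga5, which with β1 is the main fibronectin receptor, was at 42.2, 41.6 and 40.9 FPKM in CON and 70.3, 69.5 and 70.2 FPKM in 4H, a change of 0.74 on the log2 scale (SE 0.03, limma adjusted p = 7.63e-07). Itgav, the αV subunit, was at 35.8, 36.3 and 36.7 FPKM in CON and 42.6, 45.5 and 42.2 FPKM in 4H, and its change of 0.26 was the smallest of the α subunits (SE 0.04, adjusted p = 0.00107). The groups did not overlap in either gene, as in 56.7% of all genes tested. Itga2b and Itga8, the other RGD-binding subunits, stayed at or below 0.626 FPKM and 0.00939 FPKM. The collagen-binding subunits Itga1, Itga2, Itga10 and Itga11, the α subunits Itga4 and Itga9 and the leukocyte subunits Itgad, Itgae, Itgal, Itgam and Itgax did not exceed 0.376 FPKM in any library. Hence no α subunit of a collagen receptor reached the filter in either group.

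The summed levels of the α subunits changed more than those of the β subunits. The 18 α subunits were at 189.9 ± 2.38 FPKM in CON and 308.5 ± 5.15 FPKM in 4H, and the 9 β subunits at 296.0 ± 3.82 and 326.5 ± 6.36 FPKM (SD, n = 3 libraries each). The α sum was 64.0%, 63.9% and 64.5% of the β sum in the CON libraries and 95.1%, 96.9% and 91.5% in the 4H libraries, without overlap (two-sided exact permutation test, p = 0.1, the smallest possible). Within the α sum, Itga7 went from 29.4% ± 0.721 to 33.1% ± 0.769 and Itgav from 19.1% ± 0.127 to 14.1% ± 0.585 (SD, n = 3). Within the β sum, Itgb1 went from 70.7% ± 0.764 to 79.2% ± 0.28 and Itgb7 from 16.1% ± 1.51 to 8.73% ± 0.323. The groups did not overlap in any of these 4 shares. Within the α sum, Itga6 also did not overlap (means 12.0% in CON and 12.8% in 4H). The shares of Itga5 (21.9% and 22.7%) and Itga3 (16.8% in both groups) overlapped.

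Of the 13 activators and links to actin, 12 could be tested, of which 8 rose (66.7%, against 22.6% of all genes tested), 1 fell (8.33%, against 24.1%) and 3 did not pass. Vcl (ENSMUSG00000021823, chr14:20929398-21033676), which encodes vinculin and has the CArG box printed above, was at 63.7, 68.5 and 66.6 FPKM in CON and 164.8, 159.9 and 161.2 FPKM in 4H. Every 4H library was far above every CON library, and the log2 fold change of 1.28 (SE 0.03, limma adjusted p = 1.02e-07) was the largest among the focal adhesion proteins. Tns1, a tensin that ties β subunit tails to actin, was at 41.0, 38.7 and 40.0 FPKM in CON and 78.3, 83.2 and 77.7 FPKM in 4H. Its log2 change of 0.99 (SE 0.04, adjusted p = 6.75e-07) was just short of differential expression, and it passed after rescaling to TPM (1.03) or quantile normalization (1.02) and without 4H replicate 1, 4H replicate 3 or CON replicate 1. Tns3 was at 27.3, 27.0 and 27.6 FPKM in CON and 50.2, 51.4 and 51.3 FPKM in 4H, a change of 0.89 on the log2 scale (SE 0.03, adjusted p = 4.65e-07). The remaining tensin, Tns2, was at 34.1 ± 1.16 FPKM in CON and 31.8 ± 1.77 FPKM in 4H (SD, n = 3) and did not pass (log2 fold change -0.10, 95% confidence interval -0.22 to 0.02, limma adjusted p = 0.141).

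The scaffold ILK, which resembles a kinase, binds kindlin, parvin and PINCH. Ilk was at 50.3, 54.8 and 55.3 FPKM in CON and 104.3, 92.1 and 98.9 FPKM in 4H, a change of 0.87 on the log2 scale (SE 0.05, limma adjusted p = 6.64e-06) without overlap. Fermt2, a kindlin, was at 32.3, 35.5 and 34.2 FPKM in CON and 58.3, 59.6 and 57.4 FPKM in 4H (log2 change 0.77, SE 0.04, adjusted p = 3.13e-06). The parvins bind ILK and actin. Parva was at 34.5, 36.4 and 36.4 FPKM in CON and 53.8, 46.1 and 44.7 FPKM in 4H (log2 change 0.42, SE 0.07, adjusted p = 0.00125), with 4H replicate 1 above the other 4H libraries. Parvb rose by 0.31 on the log2 scale (adjusted p = 0.000183). Of the PINCH genes, which bind ILK on its other side, Lims2 rose by 0.20 (adjusted p = 0.0053), whereas Lims1 was at 66.4 ± 1.98 FPKM in CON and 69.0 ± 1.82 FPKM in 4H with overlapping groups (SD, n = 3; log2 fold change 0.06, 95% confidence interval -0.03 to 0.14, limma adjusted p = 0.235).

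The talins, which switch integrins to their active form, did not rise. Tln1, the more abundant, was at 118.5 ± 1.23 FPKM in CON and 117.2 ± 0.891 FPKM in 4H (SD, n = 3), with a log2 fold change of -0.02 (95% confidence interval -0.08 to 0.04, limma adjusted p = 0.633). Its sign turned after rescaling to TPM (0.02) and quantile normalization (0.0049). Tln2 was at 9.60 ± 0.529 FPKM in CON and fell to 8.31 ± 0.508 FPKM in 4H (SD, n = 3), a log2 fold change of -0.20 (limma adjusted p = 0.0438). This call was lost without 4H replicate 1 (adjusted p = 0.111), 4H replicate 2 (0.125), CON replicate 1 (0.126) or CON replicate 2 (0.12), with the replicate number as a block (0.0922), with no filter (0.065), after rescaling to TPM (0.0903) and with quantile normalization (0.0505).

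Among the 10 kinases and signalling adaptors, 6 rose (60%, against 22.6% of all genes tested), 2 fell (20%, against 24.1%) and 2 did not pass, with a median log2 fold change of 0.21, where that of the activators and links to actin was 0.37. Nedd9, an adaptor of the same family as Bcar1, was at 6.21, 6.60 and 6.21 FPKM in CON and 10.8, 10.6 and 11.2 FPKM in 4H, a change of 0.73 on the log2 scale (SE 0.06, limma adjusted p = 2.60e-05). Tgfb1i1, a relative of paxillin also called Hic-5, was at 28.6, 31.1 and 31.0 FPKM in CON and 44.8, 46.2 and 47.7 FPKM in 4H (log2 change 0.61, SE 0.05, adjusted p = 2.04e-05). Src, the kinase that works together with focal adhesion kinase, was at 17.5 FPKM in each CON library, against 23.8, 23.6 and 23.1 FPKM in 4H (log2 change 0.41, SE 0.04, adjusted p = 6.65e-05). The groups did not overlap in any of these 3 genes, which held for 56.7% of all genes tested. Ptk2, which encodes focal adhesion kinase, rose from 41.0 ± 0.502 to 51.7 ± 0.299 FPKM (SD, n = 3; log2 fold change 0.33, limma adjusted p = 6.44e-05). The adaptor Bcar1 rose by 0.29 on the log2 scale and Crk, which binds it, by 0.13.

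Paxillin itself, Pxn, was at 24.5, 24.4 and 25.5 FPKM in CON and 26.4, 28.0 and 26.0 FPKM in 4H. Its groups did not overlap, but the log2 fold change of 0.11 (95% confidence interval 0.01 to 0.21) did not pass after adjustment (limma adjusted p = 0.0698) and passed only in the alternative rescaled to TPM (adjusted p = 0.0247). Crkl was at 19.6 ± 1.09 FPKM in CON and 20.4 ± 0.457 FPKM in 4H (SD, n = 3; 95% confidence interval of the log2 fold change -0.06 to 0.18). Git1 and Git2, scaffolds that bind paxillin and help adhesions turn over, both fell. Git1 went from 34.2 ± 0.0944 to 28.7 ± 0.851 FPKM (SD, n = 3; log2 fold change -0.25, limma adjusted p = 0.000895). Git2 went from 19.6 ± 1.03 to 16.6 ± 1.13 FPKM (SD, n = 3; log2 fold change -0.24, limma adjusted p = 0.0149), a call lost without 4H replicate 3 (adjusted p = 0.0507) or CON replicate 1 (0.0542).

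Of the 8 LIM and actin assembly proteins, 6 rose (75%, against 22.6% of all genes tested), 1 fell (12.5%, against 24.1%) and 1 did not pass. Fblim1 (ENSMUSG00000006219, chr4:141576062-141606096), or migfilin, which binds kindlin, was at 13.8, 13.5 and 12.98 FPKM in CON and 32.6, 28.5 and 30.1 FPKM in 4H. The lowest 4H library was above the highest CON library by more than the level of that CON library, and the log2 fold change was 1.15 (SE 0.06, limma adjusted p = 1.92e-06). Pdlim7, a PDZ and LIM protein of actin bundles, was at 45.5, 45.2 and 43.9 FPKM in CON and 75.7, 75.2 and 79.6 FPKM in 4H (log2 change 0.77, SE 0.04, adjusted p = 1.31e-06). Pdlim5, of the same family, was at 30.9, 31.9 and 31.1 FPKM in CON and 49.6, 45.7 and 46.4 FPKM in 4H (log2 change 0.59, SE 0.04, adjusted p = 1.29e-05). Neither overlapped between the groups, as was so for 56.7% of all genes tested. Lpp, a zyxin relative, was at 20.6, 20.8 and 20.1 FPKM in CON and 32.7, 32.0 and 31.9 FPKM in 4H (log2 change 0.64, SE 0.04, adjusted p = 4.49e-06). Zyx, or zyxin, was the most abundant focal adhesion protein gene of the list and rose from 199.4 ± 5.36 to 242.2 ± 8.595 FPKM (SD, n = 3; log2 fold change 0.28, limma adjusted p = 0.000316).

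Vasp, which extends actin filaments, rose from 40.6 ± 1.44 to 52.9 ± 0.915 FPKM (SD, n = 3; log2 fold change 0.38, limma adjusted p = 9.13e-05). Its relative Enah was at 9.86 ± 1.26 FPKM in CON and 9.25 ± 1.28 FPKM in 4H with overlapping groups (SD, n = 3; 95% confidence interval of the log2 fold change -0.36 to 0.18). Trip6, also a relative of zyxin, was the only LIM protein of the list that fell, from 37.9 ± 0.493 to 29.8 ± 1.61 FPKM (SD, n = 3; log2 fold change -0.34, limma adjusted p = 0.000456). The zyxin relatives Zyx, Lpp and Trip6 thus did not share a direction. Itgb3bp, which is no subunit, was at 2.27 ± 0.0264 FPKM in CON and 2.02 ± 0.11 FPKM in 4H (SD, n = 3; 95% confidence interval of the log2 fold change -0.35 to 0.07).

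**Figure D4:**
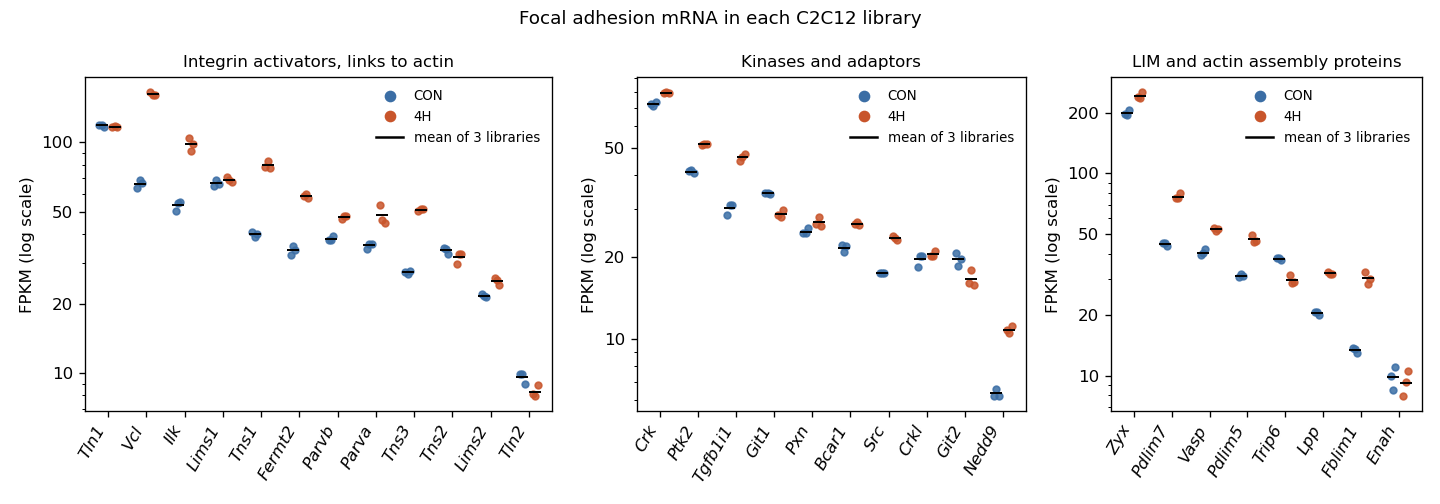
FPKM on a log scale of the 30 focal adhesion genes that could be tested, in 3 panels for activators and links to actin, kinases and adaptors, and LIM and actin assembly proteins, with 1 point per library and a bar at the mean of 3 libraries. Vcl and Fblim1 show the widest gaps between the groups, and the points of Tln1, Lims1, Tns2, Crkl and Enah overlap.

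A list of 40 further genes of the integrin pathway that are no members, chosen for their roles, held 37 that could be tested. Of these 21 rose (56.8%, against 22.6% of all genes tested), 7 fell (18.9%, near the 24.1% of all genes) and 9 did not pass, with a median log2 fold change of 0.15. Only Ptk2b and Elmo1 of the 37 met differential expression, where 3.88% of all genes did. Ptk2b, the second kinase of the focal adhesion kinase family, was at 4.72, 5.71 and 4.88 FPKM in CON and 14.7, 16.2 and 15.1 FPKM in 4H, a change of 1.503 on the log2 scale (SE 0.08, limma adjusted p = 2.79e-06). Elmo1, which activates Rac with Dock1, was at 8.70, 7.61 and 8.05 FPKM in CON and 0.903, 0.76 and 0.808 FPKM in 4H, a change of -2.70 on the log2 scale (SE 0.09, adjusted p = 2.98e-07). The groups of both genes lay far apart, in opposite directions.

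The following genes of that list were picked after their values were seen. Actin crosslinkers rose, with log2 fold changes of 0.76 for Actn1, 0.53 for Actn4 and 0.34 for Flna. The actin-associated proteins Palld (0.98), Csrp1 (0.83) and Tes (0.82) rose, while Svil, which binds actin too, did not pass (0.11, adjusted p = 0.315). The Src family kinase Fyn fell by 0.48 and the integrin inhibitor Sharpin fell by 0.23 on the log2 scale. Of the ligands, Fn1, which encodes fibronectin, rose by 0.12 (adjusted p = 0.0481) with overlapping groups, and Vtn, which encodes vitronectin, was listed at 0 in every library.

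Some members share exon sequence with another gene of GENCODE M21, and whether the values were counted by strand is not stated, so reads of such genes cannot be told apart with certainty. Of the tested members 10 overlap in exons with an opposite-strand gene and 1, Pdlim7, with the microRNA gene Mir6945 on its own strand. For Vcl the partner was Ap3m1, at 17.5 FPKM in CON and 18.5 FPKM in 4H (adjusted p = 0.304). For Ilk the partners were Rrp8 (16.4 and 17.02 FPKM) and Taf10 (10.7 and 10.8 FPKM), and for Tln1 the partner was Creb3, which rose from 21.03 to 26.3 FPKM (adjusted p = 0.00109). For Zyx the partner was Epha1 (3.15 and 2.81 FPKM) and for Lims2 it was Gpr17 (0.469 and 0.446 FPKM). Pgm1, the partner of Itgb3bp, rose by 0.52 on the log2 scale (adjusted p = 2.53e-05), and its means of 27.3 FPKM in CON and 39.3 FPKM in 4H were far above the level of Itgb3bp. The partners of Itga7, Itgav, Nedd9 and Lpp were not found in the table by symbol. None of the 5 tested β subunits shared exon sequence with another gene.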

How the data were processed

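RNA-seq of C2C12 cells was read from 1 deposited table of FPKM values, which the authors made from their reads and normalized for transcript length and mapped fragments. The submitters' processing notes name the mm10 build. Aligner, counting tool and annotation: not given in the sources used here. The libraries are strand-specific per the labels, and no column went unused. The test named in the study's methods needs counts, so the FPKM values were tested with limma 3.58.1 (R 4.3.3) on log2(FPKM + 0.5), with a trend and Benjamini-Hochberg adjustment, over genes averaging 0.5 FPKM or more across the 6 libraries. Thresholds were an adjusted p of at most 0.05 and, for differential expression, a log2 fold change of 1 or more in either direction. Shares and sums were compared by exact permutation tests with SciPy 1.17.1 (Python 3.11.15, pandas 2.3.3, numpy 2.4.6, matplotlib 3.10.9). Library depth is unknown, so no counting interval is given. Values in every library are given for each subunit averaging 0.5 FPKM or more and for other members that passed with a change of 0.4 or more on the log2 scale. Members and lists were chosen with earlier results of these data known. Gene positions are those of GENCODE M21 (GRCm38), and promoters those of RefSeq (GRCm38.p6). The fit was tested on simulated data. Alternatives were pseudocounts of 0.1 and 1 FPKM, no filter, a filter at 1 FPKM, quantile normalization, rescaling to TPM, median-of-ratios scaling, no trend, the replicate number as a block, Itgb1 in the denominator of the share of Itgb3, and each library left out in turn.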

Additional observations from a re-analysis of the deposited data

How the results depend on the processing

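The members that rose numbered 28, with 27 to 30 over the alternatives, those that fell 6, with 4 to 6, and those differentially expressed 4, with 3 to 5. Of 614 refits of single members, 600 kept direction and side of the threshold. The 10 lost calls were those of Tln2 and Git2, and Pxn passed in 1 refit. The sign turned in 3: Tln1 (main -0.02) was at 0.0196 after rescaling to TPM and 0.0049 with quantile normalization, and Enah (main -0.09) ranged from -0.183 to 0.0119 when single libraries were left out, with the positive value without 4H replicate 1. The cause was not tested. The difference in the share of Itgb3, 30.1 percentage points, ranged from 29.7 to 30.6 when single libraries were left out and was 3.77 with Itgb1 added to the denominator, since Itgb1 is far more abundant. With the replicate number as a block, 28 members rose, 5 fell and 4 were differentially expressed, and 4964 in place of 5409 genes passed in all. Same-numbered libraries did not deviate together (correlations 0.025, -0.0929 and -0.126), and the numbers were not taken to pair the samples. With unknown depth, the counting error of low genes could not be given.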

Other observations

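Paralogs of the list shifted against each other to different degrees. Tns1 made up 39.4% ± 0.637 of the summed FPKM of Tns1, Tns2 and Tns3 in CON and 49.1% ± 0.867 in 4H, without overlap (SD, n = 3; two-sided exact permutation test, p = 0.1, the smallest possible). Lims1 made up 75.4% ± 0.75 of both PINCH mRNAs in CON and 73.4% ± 0.295 in 4H, also without overlap. Tln1 made up 92.5% ± 0.312 of both talin mRNAs in CON and 93.4% ± 0.409 in 4H, again without overlap. The shares of Git1 among Git1 and Git2 (63.6% and 63.4%), of Crk among Crk and Crkl (78.7% and 79.6%) and of Parva among both parvins (48.4% and 50.3%) overlapped between the groups.

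Itgb7 was the second most abundant β subunit although its known α partners were nearly absent. Itga4 and Itgae together reached 0.553%, 0.718% and 0.721% of the FPKM of Itgb7 in the CON libraries and 1.22%, 0.714% and 1.10% in the 4H libraries, with overlapping groups (two-sided exact permutation test, p = 0.3). The leukocyte marker Ptprc was at 0 in all 6 libraries, and no marker of the 4 other than Cd68 exceeded 0.052 FPKM.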
